A study of Arabidopsis thaliana with 42 samples.

Results

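The inflorescence apices of the floral mutant ap1-15 were compared with those of the wild type Col-0 in Arabidopsis thaliana, 3 arrays against 3, out of 42 arrays in all. The members were taken by their genotype and tissue labels. The series covers shoot and stem organs and mutants in 14 groups of 3 Affymetrix arrays. Plants of both genotypes grew on soil in continuous light at 23 °C and 65% relative humidity, and the tissue was collected after bolting. The ap1-15 plants are listed with Col-0 as their genetic background. For Col-0 the labels describe the tissue as the apex with flowers up to stage 7/8, and they give no stage limit for ap1-15. A second comparison set ap1-15 against the mean of the other 6 mutants whose inflorescence apices were collected after bolting, clv3-7, lfy-12, ap2-6, ap3-6, ag-12 and ufo-1, with 18 arrays. The labels give neither plant age nor the nature of the alleles. They also do not say if replicates A, B and C were grown or harvested apart, and a p-value therefore speaks only of the spread among these arrays, part or all of which may be technical.

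APETALA1 (AP1) encodes a MADS-box transcription factor that gives young floral meristems their identity and, later, acts as a class A gene for sepals and petals. When it starts to act in a young flower it is known to repress genes of the inflorescence programme, among them FD, AGL24 and SOC1-related MADS-box genes. Strong ap1 mutants make leaf-like organs or bracts in place of sepals, often lack petals and bear extra flowers in the axils of the outer organs, while stamens and carpels still form. APETALA2 is the other class A gene, and LEAFY and UFO act with AP1 upstream of the genes for petals and stamens.

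All values are MAS5 signals, which are linear intensities. Differences were tested on log2(signal + 8), so a fold change stands on that scale and understates the change of dim genes. The annotation used here names no probe set for AP1, so the mutated gene could not be read as a check of the label. Of the 21 markers of an inflorescence apex with young flowers 6 were annotated, and their summed signal was 615 to 674 in ap1-15, against 586 to 601 in Col-0; CLV3 alone among them lay below the filter on low values. FD, described below, averaged 156 of this sum in ap1-15, against 45.6 in Col-0, and SPT was also higher, while UFO and PHV were lower (PHV averaged 277 in ap1-15 and 365 in Col-0). Arrays of one group correlated at 0.986 to 0.993, while ap1-15 and Col-0 arrays correlated at 0.961 to 0.965. The Col-0 arrays stood apart in the bacterial poly-A control transcripts: dap had 0.23 to 0.95 in ap1-15, 196 to 225 in Col-0 and 0.37 to 3.27 in the other 6 mutants. The 3'/5' signal ratios of the RNA controls were lower in ap1-15 than in Col-0. Their log2 ratios were 1.49 to 1.61 in ap1-15, 1.74 to 1.88 in Col-0 and 1.59 to 2.19 in the other 6 mutants. Only ap1-15 replicate C, at 1.61, lay within the range of the other mutants. The mean was 1.56 in ap1-15, 1.83 in Col-0 and 1.82 in the other mutants, so leaving Col-0 out does not remove this difference. The part of either measure in the results was not tested, with 2 exceptions. These are the fits with the ratio as a covariate and, for the poly-A controls, the comparison that leaves Col-0 out.

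Of 14627 probe sets tested, 4019 (27.5%) passed an adjusted p of 0.05 between ap1-15 and Col-0, 2051 (14.0%) of them higher in ap1-15 and 1968 (13.5%) lower; with each array scaled to its median, 2634 of 4260 were higher, and the median of all probe sets moved to 0.05. Against the other 6 mutants 4920 (33.6%) passed, 17.7% higher and 15.9% lower. At 2-fold or more, and with the loci AT3G03320 to AT3G05060 of chromosome 3 set aside, 278 probe sets (1.91%) passed against Col-0, 86 (0.590%) higher and 192 (1.32%) lower in ap1-15. Against the other mutants 235 (1.61%) passed, 76 (0.522%) higher and 159 (1.09%) lower. Both tests were passed in the same direction by 155 probe sets (1.06%), of which 43 (0.295%) were higher in ap1-15 and 112 (0.769%) lower. The 2 comparisons share the 3 ap1-15 arrays. Only 59 of the 155 had a single annotated locus, 45 of them lower, and 10 had a gene symbol. Of the 278, 123 did not reach 2-fold in the same direction against the other mutants, and 8 of these had the opposite sign there.

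Regulators that act in the inflorescence meristem were higher in ap1-15. The list of meristem and inflorescence identity regulators has 58 names, of which 7 were measured. Of these 7, 4 were higher than in Col-0 and none lower, where 14.0% of all probe sets were higher. The median log2 difference was 0.78, against 0.003 over all probe sets; the list draws on genes that AP1 is known to repress. FD, a bZIP factor that binds the florigen FT, had 175, 149 and 145 in ap1-15, against 47.45, 40.04 and 49.18 in Col-0. Every ap1-15 array lay above every Col-0 array and above the highest array of the other 6 mutants, at 112. FD averaged 96.2 in clv3-7 and 78.5 in lfy-12, and all arrays of both lay above every Col-0 array. The log2 difference of FD was 1.62 ± 0.12 (SE, adjusted p = 1.85e-11) against Col-0 and 1.23 ± 0.09 against the other mutants (adjusted p = 9.84e-12). AGL71, a MADS-box gene related to SOC1, had 43.6, 44.4 and 51.2 in ap1-15, against 9.1, 16.7 and 6.48 in Col-0, a log2 difference of 1.57 ± 0.26 (adjusted p = 4.89e-05). The Col-0 signals of AGL71 lie near the offset, and this difference ran from 0.88 to 2.00 over the other settings. The groups did not overlap, and lfy-12 came closest to ap1-15 with a mean of 32.3 ± 7.57 (SD, n = 3).

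AGL42, a close relative of AGL71, had 192, 217 and 213 in ap1-15, against 94.0, 106 and 90.8 in Col-0. It was 2.05-fold higher, with a log2 difference of 1.04 ± 0.10 (adjusted p = 2.71e-09), and 0.73 ± 0.07 higher than the other mutants. The means of lfy-12 and ap2-6 were 165 and 168, below every ap1-15 array and above every Col-0 array. AGL24, a MADS-box promoter of inflorescence fate, had 59.8, 63.0 and 71.2 in ap1-15, against 31.6, 37.6 and 33.5 in Col-0, a log2 difference of 0.78 ± 0.13 (adjusted p = 5.29e-05). Against the other mutants it was 0.35 ± 0.10 higher (adjusted p = 0.00772), a call that was lost at 0.29 (adjusted p = 0.0814) without ap1-15 replicate C. In lfy-12 AGL24 averaged 70.5 ± 4.32 and in ap2-6 61.7 ± 6.72, so ap1-15, at 64.7 ± 5.87, stood between them within the spread of the arrays. The other 3 members, GI, LD and FY, did not pass against Col-0, with log2 differences of 0.22, -0.02 and 0.12; GI, a clock and photoperiod gene, was lower than in the other mutants (-0.50 ± 0.08).

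**Figure D1:**
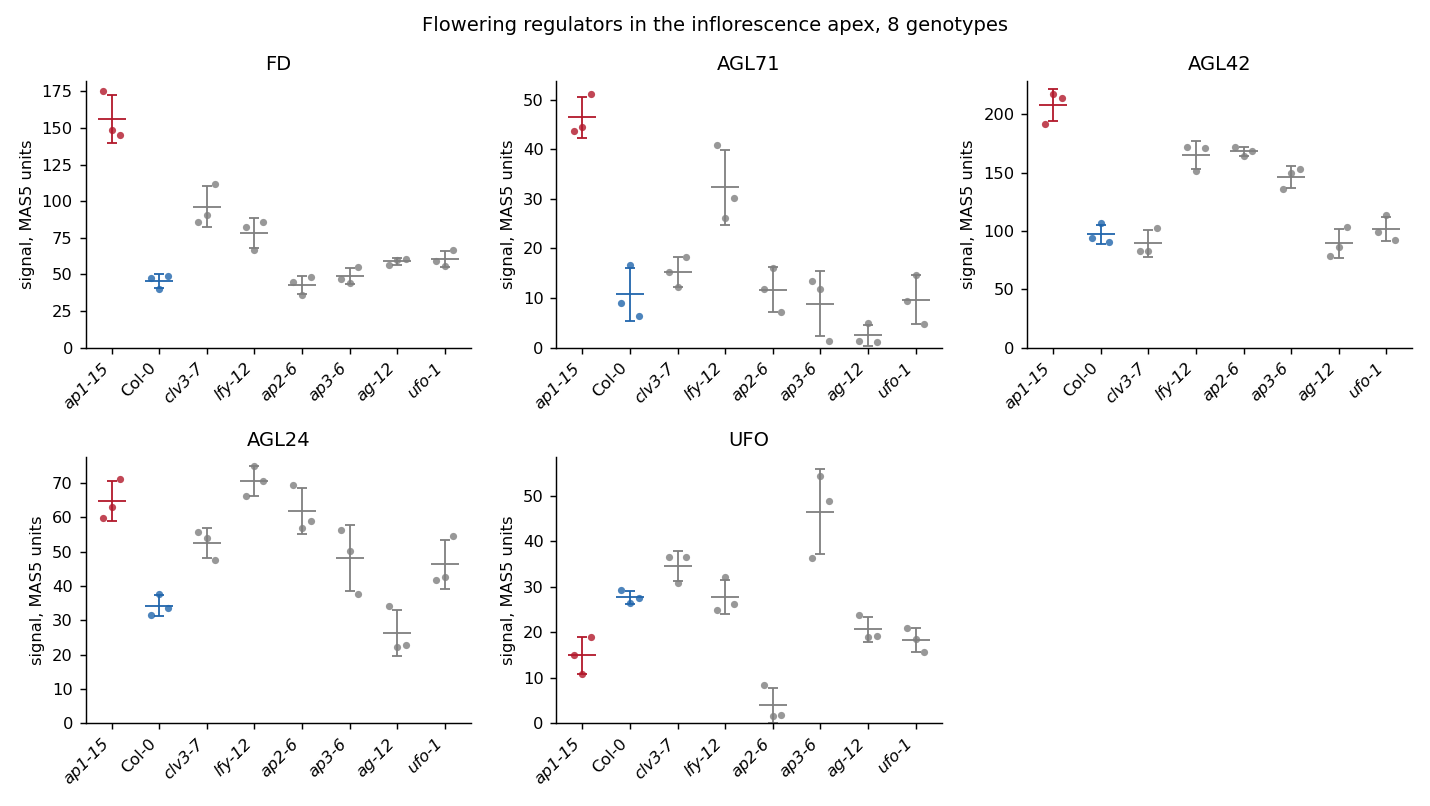
Signals in MAS5 units (vertical axes) of 5 flowering regulators in the inflorescence apex of 8 genotypes (horizontal axes); points are single arrays, horizontal bars the mean and whiskers 1 SD (n = 3). The 3 ap1-15 arrays of FD, AGL71 and AGL42 lie above all Col-0 arrays, whereas those of UFO, at 10.8 to 19.0, lie below them.

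The same regulators had very different levels across the organs of the series, which were looked up after their values had been seen. FD averaged 156 ± 16.4 in ap1-15, the highest mean of the 14 groups, next to 125 ± 6.22 in the transition apex, 37.9 ± 6.08 in the vegetative apex and 45.6 ± 4.85 in the Col-0 inflorescence apex. AGL42 and AGL71 were likewise highest in ap1-15 among the 14 groups. AGL24 was not: its mean was 156 ± 5.5 in the transition apex and 191 ± 12.7 in the first node, above the 64.7 of ap1-15.

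Among 5 measured genes of floral meristem identity, 3 were higher than in Col-0, 1 was lower and 1 did not pass, where 14.0% of all probe sets were higher and 13.5% lower. UFO, an F-box partner of LEAFY, had 15.0, 10.8 and 19.0 in ap1-15, against 29.2, 26.4 and 27.4 in Col-0. The groups did not overlap, and the log2 difference was -0.65 ± 0.18 (adjusted p = 0.00681). The call was lost with the RNA ratio as a covariate, at -0.49 (adjusted p = 0.148), and without ap1-15 replicate B, at -0.52 (adjusted p = 0.0513). Against the other mutants the log2 difference of UFO was -0.40 ± 0.14 (adjusted p = 0.0255), and this call was lost without ap1-15 replicate A or B, at -0.41 and -0.26, with the RNA ratio as a covariate, at -0.24 (adjusted p = 0.448), and with an offset of 2, at -0.43. Levels of UFO in those mutants ran from 3.96 ± 3.91 in ap2-6 to 46.4 ± 9.30 in ap3-6. SAP (STERILE APETALA), an F-box gene needed for flower organ growth, had 37.5, 33.3 and 39.3 in ap1-15, against 21.3, 21.1 and 14.7 in Col-0. Its lowest ap1-15 array exceeded the highest array of the other mutants, 21.5, and the log2 differences were 0.73 ± 0.17 (adjusted p = 0.00187) and 0.97 ± 0.13. SEU, a co-repressor that works with AP1 and AGL24 proteins, was higher by 0.45 ± 0.08 against Col-0. PUCHI, an AP2/ERF factor that promotes floral fate, was higher by 0.49 ± 0.16 (adjusted p = 0.0265), a call lost without Col-0 replicate C (0.40) or without ap1-15 replicate B (0.48) or C (0.45). ULT1 did not pass, with a log2 difference of -0.14.

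In the list named petal and sepal growth, chosen like the others with earlier results of these data known, RXF26 and scpl35 were far lower in ap1-15. Of 10 measured members of the list 4 were lower than in Col-0, where 13.5% of all probe sets were lower, 1 was higher and 5 did not pass; the median was -0.14. RXF26, of the GDSL lipase family, had 9.26, 19.2 and 13.5 in ap1-15, against 322, 331 and 318 in Col-0. It was 15.3-fold lower, with a log2 difference of -3.94 ± 0.11 (adjusted p = 2.08e-20), and -3.33 ± 0.08 against the other mutants. The mean over the other mutants hides their range: ap2-6, the other class A mutant, had a mean of 15.7 ± 3.01, overlapping ap1-15. The others had means of 143 in clv3-7, 317 in ufo-1, 338 in ap3-6, 415 in lfy-12 and 614 in ag-12. Whether RXF26 marks petal tissue in these apices was not tested. In the organs without flowers RXF26 averaged 2.62 to 6.09, and 80.0 in the transition apex.

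A serine carboxypeptidase-like gene, scpl35, had 45.5, 49.5 and 48.8 in ap1-15, against 194, 209 and 217 in Col-0, a log2 difference of -1.94 ± 0.07 (adjusted p = 1.98e-18). Its lowest array among the other mutants was 93.1, in ap2-6, above the highest ap1-15 array, and the log2 difference from them was -1.54 ± 0.05. It was also high outside flowers, with a mean of 848 in the hypocotyl. JAG, which drives the growth of lateral organs, was lower (-0.47 ± 0.15, adjusted p = 0.0232), a call lost without ap1-15 replicate B (-0.27), Col-0 replicate B (-0.40) or Col-0 replicate C (-0.47). YAB3, a gene of the lower side of lateral organs, was lower too (-0.38 ± 0.08). BPEp, a bHLH gene that limits petal size, was the member that was higher, by 0.52 ± 0.13 (adjusted p = 0.00356), with 87.5, 88.7 and 61.8 in ap1-15, against 50.6, 51.3 and 54.8 in Col-0. With the RNA ratio as a covariate BPEp had 0.42 and did not pass. The summed signal of the 6 petal markers, all of them annotated, was 200 to 211 in ap1-15, against 652 to 690 in Col-0. It was 238 to 1118 in the other mutants. RXF26 and scpl35 averaged 324 and 207 in Col-0 and so made up most of its sum. Of the other markers, BPEp was higher in ap1-15 (mean 79.35, against 52.2 in Col-0). RBE (6.22 against 13.1), PTL (31.3 against 38.8) and JAG (28.4 against 41.7) were lower. The lower sum therefore restates RXF26 and scpl35 and is no separate measure of petal tissue. In RNA from a whole apex, fewer cells of a type and less RNA per cell cannot be told apart.

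Among genes with an annotated locus, the 2 with the largest decreases had no symbol, and loci without a symbol are given no role here. AT2G20870 had 38.2, 31.6 and 35.1 in ap1-15, against 1625, 1550 and 1501 in Col-0, so the mean was 36.5-fold lower on the scale of signal + 8. The log2 difference was -5.19 ± 0.08 (adjusted p = 3.15e-26) and -4.57 ± 0.06 against the other mutants. AT5G33370 had 18.6, 18.6 and 35.5 in ap1-15, against 917, 920.5 and 874 in Col-0, with a log2 difference of -4.86 ± 0.12 (adjusted p = 9.04e-22). As with RXF26, ap2-6 was the mutant nearest to ap1-15, at 81.7 ± 8.27 for AT2G20870 and 49.45 ± 7.35 for AT5G33370, and no ap1-15 array reached it. AT1G11850 had 1.22, 0.96 and 1.34 in ap1-15, against 109, 96.3 and 101 in Col-0. In the other direction, AT1G60180 had 42.1, 47.9 and 42.2 in ap1-15, against 0.96, 1.04 and 0.26 in Col-0, and at most 7.59 in the other mutants. AT1G33055 had 125, 199 and 201 in ap1-15, against 41.3, 26.3 and 30.9 in Col-0, a log2 difference of 2.15 ± 0.22. These 2 loci did not overlap with Col-0, but arrays of the other mutants reached 173 for AT1G33055.

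**Figure D2:**
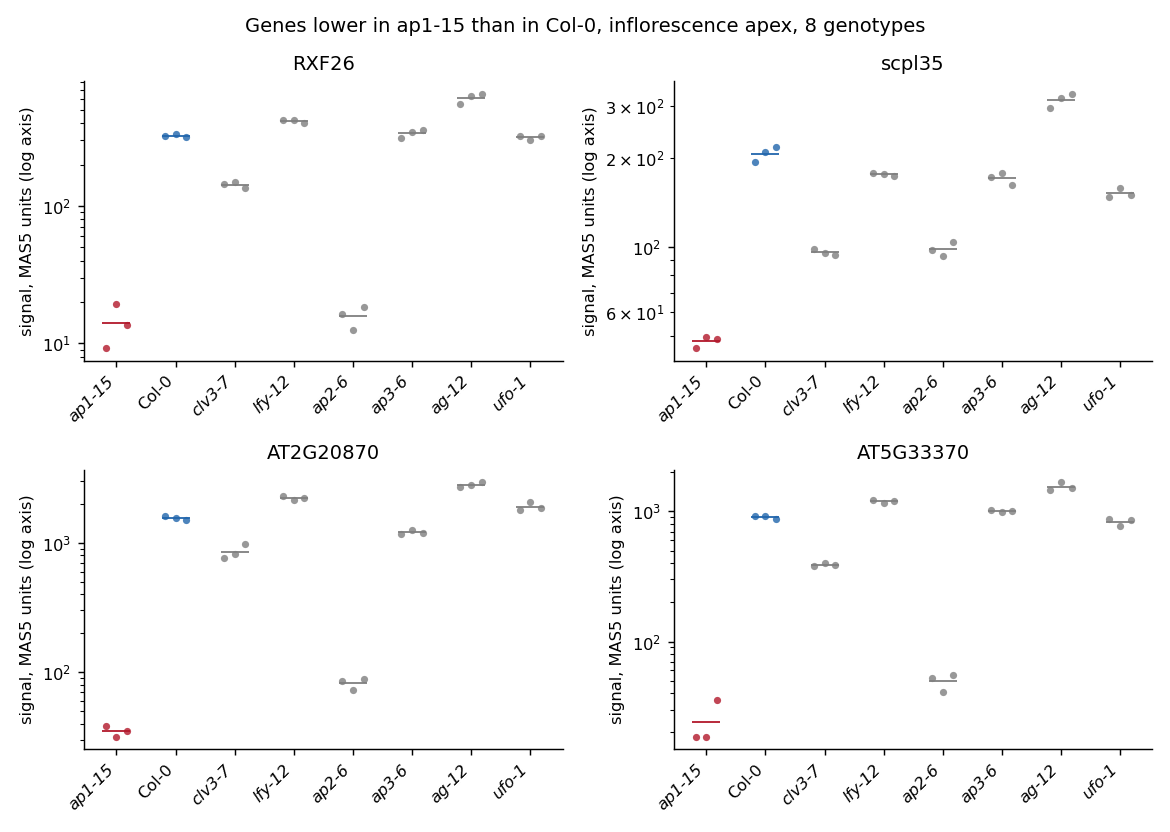
Signals in MAS5 units on log axes (vertical) of 4 genes in the inflorescence apex of 8 genotypes (horizontal); points are single arrays and bars group means (n = 3). For RXF26, AT2G20870 and AT5G33370 the ap1-15 and ap2-6 arrays lie far below the other 6 genotypes, and for scpl35 ap1-15 alone lies below 50.

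Of 27 names on the list of the stomatal lineage, which makes the pores of the epidermis, 3 were measured. All 3 were lower in ap1-15 in both comparisons, where 13.5% and 15.9% of all probe sets were lower. Their median was -0.96 against Col-0 and -1.06 against the other mutants. STOMAGEN, a peptide that promotes stomata, had 14.4, 17.1 and 15.1 in ap1-15, against 44.2, 52.7 and 48.7 in Col-0. Its log2 differences were -1.26 ± 0.13 (adjusted p = 9.97e-09) and -1.35 ± 0.10, and its lowest array in the other mutants was 26.3. SPCH (SPEECHLESS), the bHLH factor that starts the lineage, had 18.9, 25.6 and 19.5 in ap1-15, against 35.3, 48.1 and 41.0 in Col-0. SPCH differed by -0.75 ± 0.14 (adjusted p = 0.000197) and by -1.06 ± 0.11 from the other mutants, and FMA (FAMA), which acts at its end, by -0.96 ± 0.16 and -0.76 ± 0.12. None of the 3 overlapped with Col-0. For FMA, ap2-6 overlapped ap1-15, with 10.8, 22.5 and 13.9, against 10.3, 10.9 and 12.25 in ap1-15. With the RNA ratio as a covariate all 3 genes still passed in both comparisons. Summed markers of trichomes and of expanded leaf were also lower than in Col-0, without overlap. The trichome sum (2 of 4 markers annotated) was 35.9 to 47.4 in ap1-15, 55.6 to 63.9 in Col-0 and 31.6 to 91.5 in the other mutants. Only its marker TRY was lower (mean 28.6, against 50.6 in Col-0). GIS, which lay below the filter, was not (11.7 against 10.5). The expanded leaf sum (4 of 10) was 82.1 to 104 in ap1-15, against 145 to 163 in Col-0. Most of it was LrgB, a gene described below (mean 72.1, against 124.8 in Col-0), and the other markers lay below the filter. The leaf sum is therefore no separate measure of leaf tissue. The part of either tissue in the stomatal differences was not tested.

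Photosynthesis genes were lower as well, by smaller amounts. Of 12 measured genes of the light reactions 8 were lower than in Col-0 and none higher (median -0.35), and all 12 were lower than in the other mutants (median -0.64), against a background of 13.5% and 15.9% lower. The Calvin cycle and photorespiration list had 5 of 5 lower in both comparisons (medians -0.41 and -0.69). LrgB, a plastid transporter of glycolate and glycerate, had 71.2, 66.2 and 78.8 in ap1-15, against 128, 131 and 115 in Col-0, and at least 115 in the other mutants. Its log2 differences were -0.73 ± 0.08 (adjusted p = 8.45e-08) and -1.13 ± 0.06 (adjusted p = 4.56e-14). RCA, the rubisco activase, had 594, 623 and 648 in ap1-15, against 951, 905 and 917 in Col-0, a log2 difference of -0.57 ± 0.06. The groups did not overlap for either gene. HPR, a photorespiratory enzyme, differed by -0.41 ± 0.07, PSAE-1, of photosystem I, by -0.70 ± 0.08, and the subunits NdhL and NdhN of the plastid NADH dehydrogenase-like complex by -0.73 ± 0.11 and -0.48 ± 0.10. The antenna protein LHCB4.3 and the Calvin cycle enzyme PRK were also lower (-0.44 and -0.20). SBPASE, of the same cycle, differed by -0.29 ± 0.08 (adjusted p = 0.00686), a call lost without ap1-15 replicate C, at -0.22.

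Levels of these genes varied among the other mutants. LHCB4.2, another antenna protein, averaged 294.5 ± 13.97 in ap1-15 and 374 ± 4.59 in Col-0. It averaged 839 ± 22.0 in lfy-12, 676 ± 24.3 in ag-12 and 589 in ufo-1. In clv3-7, ap2-6 and ap3-6 it was near Col-0, at 387, 362 and 375. With the RNA ratio as a covariate 7 of the 12 light-reaction genes were lower than in Col-0 and 9 lower than in the other mutants. The Calvin cycle list kept 4 of 5 and 5 of 5. Under that fit 2663 of all 14627 probe sets passed against Col-0, 1278 of them higher and the rest lower. Without the covariate 4019 had passed. The share under that fit against the other mutants is not given here. The sum of the expanded leaf markers given above was 134 to 266 in the other mutants, and LrgB, itself one of the photosynthesis genes above, was the 1 marker that passed the filter. The part of leaf tissue in these differences was not tested.

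Defence-related genes of the glucosinolate and endoplasmic reticulum body list were lower in 3 of 5 cases against Col-0 and none was higher (median -0.75), and all 5 were lower than in the other mutants (median -0.94). Over all probe sets 13.5% and 15.9% were lower. JAL23, a jacalin-related lectin, had 147, 151 and 142 in ap1-15, against 514, 549 and 511 in Col-0, a 3.44-fold decrease with a log2 difference of -1.78 ± 0.07 (adjusted p = 2.74e-17). No array of the other mutants fell below 298, and the log2 difference from them was -1.64 ± 0.05. NAI2, which builds endoplasmic reticulum bodies, had 17.9, 16.3 and 23.1 in ap1-15, against 65.0, 61.3 and 62.9 in Col-0, and differed by -1.40 ± 0.12. UGT74B1, a glucosyltransferase of glucosinolate synthesis, differed by -0.75 ± 0.09. The members AOP1 and AOP3 did not pass against Col-0. AOP3 was near the floor, with 0.55, 4.64 and 0.5 in ap1-15, against 4.69, 8.95 and 0.72 in Col-0. Arrays of the other mutants ran from 0.6 to 67.5. The log2 difference of AOP3 from the other mutants was -1.07 and ran from -1.83 to -0.48 over the other settings. Root markers were near the floor, with a sum of 3.69 to 7.59 in ap1-15, against 12.7 to 16.8 in Col-0, and none passed the filter.

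**Figure D3:**
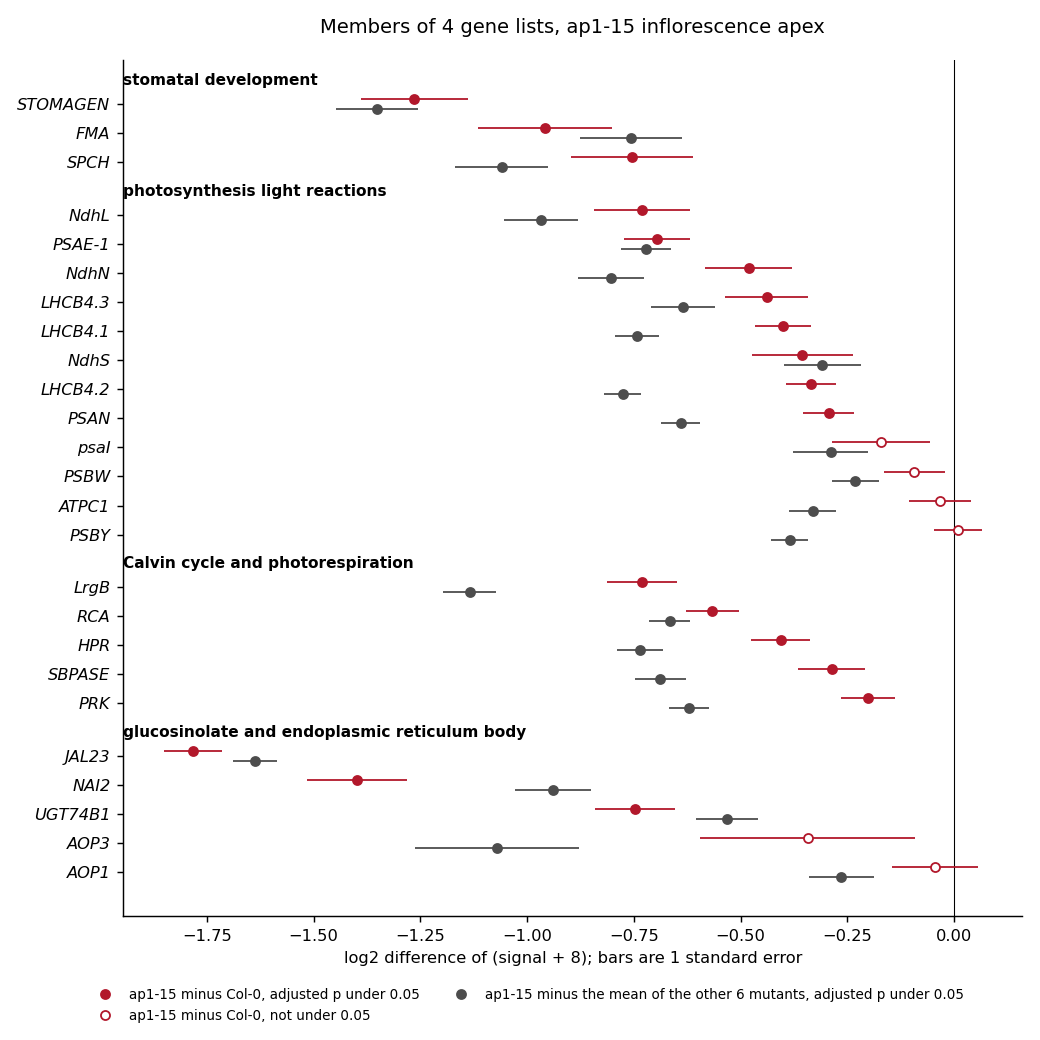
Log2 differences of signal + 8 (horizontal axis) for the measured members of 4 gene lists (vertical axis), with 1 standard error; red points are ap1-15 minus Col-0, dark points ap1-15 minus the mean of the other 6 mutants, and open points did not pass an adjusted p of 0.05. Nearly all points lie left of 0, and JAL23, at -1.78 and -1.64, lies farthest from it in both comparisons.

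Among the 10 genes with a symbol that passed both tests at 2-fold were also BAT1, MYBC1, QQS and GLC. BAT1, an acyltransferase that acts on brassinosteroids, had 211, 240 and 222 in ap1-15, against 97.3, 93.4 and 101 in Col-0, and at most 134 in the other mutants. Its log2 differences were 1.14 ± 0.07 (adjusted p = 2.34e-12) and 1.08 ± 0.06. MYBC1, a MYB-type transcription factor, had 44.4, 30.6 and 34.6 in ap1-15, against 9.2, 7.61 and 9.61 in Col-0, a 2.63-fold increase. The Col-0 signals of MYBC1 lie near the offset, and its log2 difference of 1.395 ran from 0.74 to 1.82 over the other settings. QQS, an orphan gene known for its effect on starch content, had 0.98, 0.75 and 5.1 in ap1-15, against 94.9, 90.2 and 92.3 in Col-0. QQS passed in both comparisons, but its ap1-15 signals lie under the offset, so the size of the log2 difference follows the offset: with offsets of 32, 8 and 2 it was -1.86, -3.31 and -4.61 against Col-0. The arrays of the other mutants ran from 3.06 to 44.9, all below the Col-0 arrays. Those of ap2-6, with 5.47, 3.06 and 9.48, overlapped ap1-15. Against the other mutants the log2 difference of QQS was -1.25 and ran from -2.15 to -0.52 over the other settings. Its passing 2-fold there therefore depends on the setting. GLC (GLAUCE), known from endosperm development, had 4.02, 11.2 and 9.12 in ap1-15, against 31.1, 28.1 and 30.8 in Col-0. Arrays of the other mutants ran from 3.67 to 58.1. The ap1-15 signals of GLC lie near the offset. Its log2 difference from Col-0 was -1.26 and ran from -1.74 to -0.63 over the other settings.

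Of 11 measured anther genes, 9 did not pass between ap1-15 and Col-0, 2 were lower and none was higher, with a median of 0.02; 13.5% of all probe sets were lower. Against the other mutants 8 were higher, where 17.7% of all probe sets were, and none lower (median 0.51). REM22, a B3-domain gene of young flowers, had 285, 285 and 301 in ap1-15, against 238, 279 and 246 in Col-0, a log2 difference of 0.19 ± 0.11 (adjusted p = 0.224). Its difference from the other mutants was 1.67 ± 0.09 (adjusted p = 1.16e-14), with means of 263 in ap2-6 and 220 in clv3-7 but 27.0 in ag-12, 38.5 in lfy-12, 64.5 in ap3-6 and 86.3 in ufo-1. SPL (SPOROCYTELESS), which starts the sporogenous cells, had 27.2, 28.4 and 33.2 in ap1-15, against 22.0, 25.7 and 21.6 in Col-0. It averaged 32.2 in ap2-6, 1.09 in ag-12 and 1.49 in ap3-6. ROXY2, a glutaredoxin of anther development, had 22.0 ± 2.70 in ap1-15, against 18.7 ± 4.54 in Col-0, and 2.48 in lfy-12. EMS1, the receptor kinase that specifies the tapetum, had 341 ± 13.55 in ap1-15 and 318 ± 33.2 in Col-0, and between 181 and 369 in the means of the other mutants.

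Lower than in Col-0 were SP1L2 and chr31. SP1L2, a microtubule-associated protein of the SPIRAL1 family, had 19.3, 15.8 and 14.3 in ap1-15, against 34.7, 49.0 and 53.9 in Col-0 (log2 difference -1.13 ± 0.17). It did not pass against the other mutants, at -0.19. A chromatin remodelling gene, chr31, was lower than in Col-0 (-0.51 ± 0.12) and higher than in the other mutants (0.47 ± 0.09). The 3 annotated of 9 anther markers summed to 362 to 389 in ap1-15, against 324 to 383 in Col-0, and no marker of mature pollen was annotated.

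**Figure D4:**
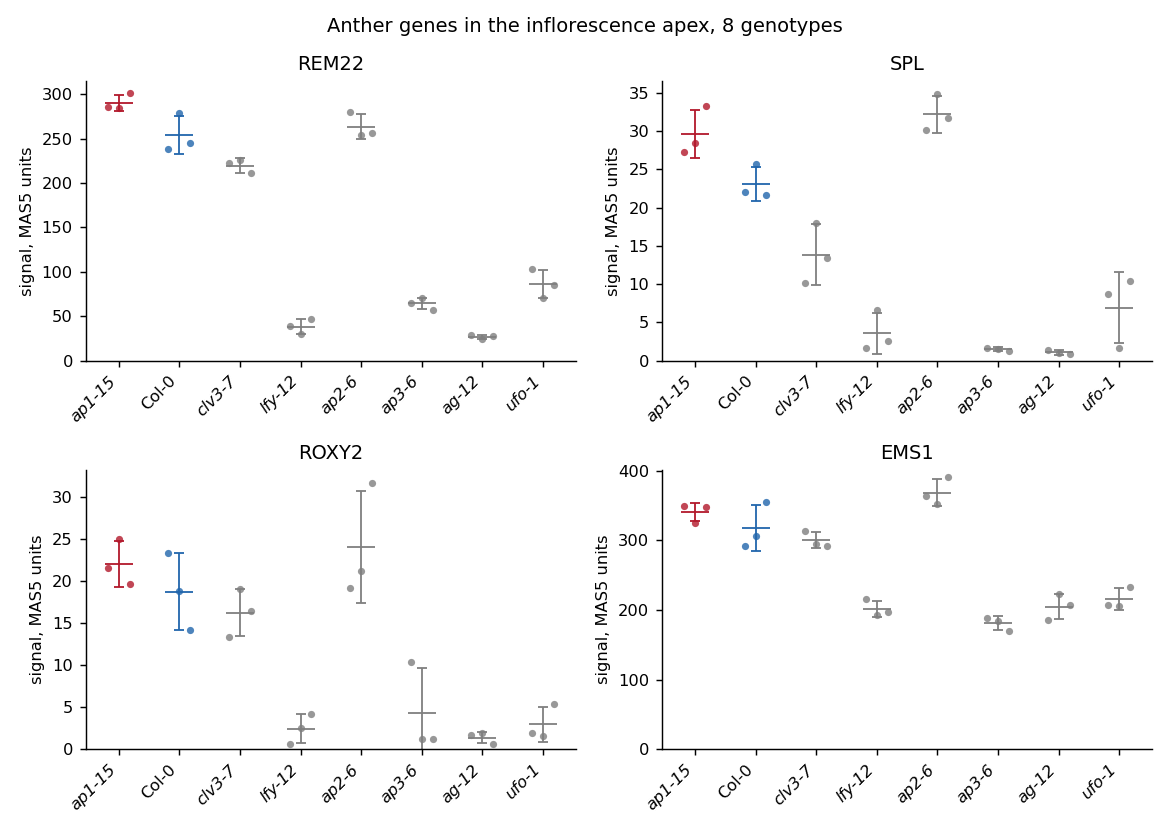
Signals in MAS5 units (vertical axes) of 4 anther genes in the inflorescence apex of 8 genotypes (horizontal axes); points are arrays, bars means and whiskers 1 SD (n = 3). For REM22, SPL and ROXY2 the ap1-15 arrays lie near those of Col-0 and ap2-6 and above those of lfy-12, ap3-6, ag-12 and ufo-1.

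Of 10 measured carpel genes 4 were higher than in Col-0, 1 was lower and 5 did not pass, where 14.0% of all probe sets were higher and 13.5% lower, so the count of lower genes is near the background. ALC (ALCATRAZ), a bHLH factor of fruit opening, had 274, 237 and 237 in ap1-15, against 130.3, 123 and 132 in Col-0. Every ap1-15 array lay above the highest array of the other mutants, 156, and the log2 differences were 0.91 ± 0.08 (adjusted p = 8.84e-10) and 1.12 ± 0.06. SPT (SPATULA), its close relative that shapes the carpel margin, was higher by 0.45 ± 0.07. TSO1, needed for cell division in flowers, was higher by 0.19 ± 0.05 (adjusted p = 0.0104), and SEU, given above, is on this list too. The style gene NGA1 had 19.42, 26.03 and 14.04 in ap1-15, against 51.1, 45.8 and 43.1 in Col-0, a log2 difference of -0.99 ± 0.14 (adjusted p = 3.94e-06). Of 7 measured genes of organ primordia, boundaries and polarity 3 were lower, namely JAG, YAB3 and the upper-side gene PHV (-0.39 ± 0.11), whose call was lost without ap1-15 replicate C (-0.31).

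Of 8 measured auxin genes 3 were higher, 1 was lower and 4 did not pass against Col-0. For this and the other hormone lists the background was 14.0% higher and 13.5% lower, and counts of 1 or 2 genes are not far from it. WES1, an enzyme that conjugates auxin to amino acids, had 257, 272 and 295 in ap1-15, against 166, 149.6 and 170.5 in Col-0, a log2 difference of 0.73 ± 0.08 (adjusted p = 1.93e-08). The other mutants did not exceed 154, below all 3 ap1-15 arrays, and differed by 1.31 ± 0.06 (adjusted p = 3.71e-16). GH3.17, of the same enzyme family, had 66.7, 59.4 and 78.8 in ap1-15, against 37.8, 29.4 and 30.2 in Col-0 (0.91 ± 0.12), whereas its relative GH3.3 was lower (-0.39 ± 0.09), a call lost with the RNA ratio as a covariate (-0.28). IAA18, an auxin response repressor, had 0.21 (adjusted p = 0.0486), a call lost on leaving out any 1 of the 6 arrays (0.19 to 0.24). The cytokinin response regulator ARR15 was higher in both comparisons, by 0.60 and 0.64, while RR16 did not pass (-0.43). One of 5 gibberellin genes was higher, the regulator SPY at 0.23 ± 0.08, a call lost without Col-0 replicate C (0.17) or without ap1-15 replicate A (0.20) or C (0.22), and with the RNA ratio as a covariate (0.08). Among 7 jasmonate and ethylene genes 1 was higher and 2 were lower, of which the thionin THI2.2 had 29.4, 40.6 and 33.2 in ap1-15, against 107, 103 and 98.2 in Col-0 (-1.39 ± 0.10). Its relative THI2.1 was lower by less (-0.27), a call lost with the RNA ratio as a covariate (-0.15), and MYC3, a bHLH factor of jasmonate signalling, was the higher one (0.23), a call lost without Col-0 replicate A (0.21) or ap1-15 replicate C (0.19), or with that covariate (0.22).

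Of 15 measured wall growth genes 5 were lower and 3 higher than in Col-0. Against a background of 13.5% lower and 14.0% higher, the count of higher wall genes is near the share of all probe sets, as are single genes in the other lists of this paragraph. The expansin EXPA8 had 5.99, 9.94 and 3.52 in ap1-15, against 21.5, 30.9 and 32.2 in Col-0 (-1.33 ± 0.21). Its ap1-15 signals lie near the offset, and this difference ran from -1.88 to -0.64 over the other settings. The xyloglucan enzyme XTH16 differed by -0.70 ± 0.07. The endoglucanase GH9B8 had -0.36, a call lost without ap1-15 replicate A (-0.29) or Col-0 replicate A (-0.32) or C (-0.31), and the expansin EXPB3 had 0.33. With the RNA ratio as a covariate neither passed, at -0.18 for GH9B8 and 0.22 for EXPB3, and the same held for MT1C (0.26), APL3 (-0.41) and HTR12 (0.22), described next. Of 7 phenylpropanoid genes 3 were higher, namely the glucosyltransferases UGT78D2 (0.78 ± 0.12), UGT84A1 (0.57 ± 0.13) and UGT84A3 (0.54 ± 0.12), and 2 were lower, HCT (-0.30) and UGT78D1 (-0.21). Among 8 cold, stress and clock genes COR47 (-0.72), ORA47 (-0.65) and COR15B (-0.61) were lower and the metallothionein MT1C was higher (0.47), a call lost on leaving out any 1 array but Col-0 replicate B (0.26 to 0.51). Sugar genes had 3 of 9 lower, QQS, SWEET17 (-0.34) and APL3 (-0.37), the last of which lost its call without ap1-15 replicate A (-0.26) or Col-0 replicate A (-0.36). Few members passed among cell cycle and histone genes (1 higher and 1 lower of 11) and in the secondary wall list (1 higher of 4), and none of 3 wax genes did. The centromeric histone HTR12 had 0.23, with arrays that overlapped between the groups and a call lost without ap1-15 replicate A or C (0.23 and 0.15) or Col-0 replicate B or C (0.24 and 0.19). PRL, a replication helicase subunit, had -0.19, and GUT1, of xylan synthesis, had 0.24, a call lost without ap1-15 replicate C (0.18). The remaining lists had 1 or 2 measured members each.

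Some genes differed in only 1 of the comparisons by the thresholds used. The plastid-encoded ndhF had 9.75, 8.64 and 15.4 in ap1-15, against 157, 78.2 and 120.4 in Col-0 (-2.68 ± 0.24), but -0.50 ± 0.18 against the other mutants, whose arrays ran from 6.63 to 27.6. That smaller difference was no longer called without ap1-15 replicate A (-0.45) or B (-0.40), with the RNA ratio as a covariate (-0.28, adjusted p = 0.509), with an offset of 32 (-0.25) or without the filter on low values. The plastid genes petN and rps14 behaved alike, with -1.87 and -1.65 against Col-0 and -0.40 and -0.13 against the other mutants; petN lost its call against the other mutants without ap1-15 replicate A (-0.34) or B (-0.38). Over 69 measured plastid-encoded genes, a list made after these values were seen, 20 were lower and 6 higher than in Col-0 (median -0.18), and 26 were lower and none higher than in the other mutants (median -0.21). Over all probe sets 13.5% were lower and 14.0% higher than in Col-0, and 15.9% lower and 17.7% higher than in the other mutants. In reverse, the cold gene COR15A and the sugar transporter SWEET10 did not pass against Col-0 (0.21 and -0.16) and were lower than in the other mutants by -1.34 ± 0.12 and -1.27 ± 0.06.

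A run of neighbouring loci on chromosome 3 was raised in ap1-15, and it was known from these data before the comparison was made, so its values are a description. Of 83 annotated loci from AT3G03320 to AT3G05060, 57 were tested, and 51 of them were higher than in Col-0 and 54 higher than in the other mutants; none was lower. The median log2 difference was 0.84 in both comparisons, and 12 loci reached 2-fold against Col-0 and 14 against the other mutants; with the run included, 0.670% and 0.615% of all probe sets were higher at 2-fold. The largest differences from Col-0 were 1.497 for AT3G04210, 1.41 for AT3G03790 and 1.37 for AT3G03770. AT3G03790 had 304, 304 and 291 in ap1-15, against 105, 108 and 112 in Col-0, and at most 141 in the other mutants. The raised region did not start at the first locus set aside. Just before it AT3G03290 had 82.5, 60.6 and 94.3 in ap1-15, against 0.24, 0.86 and 1.14 in Col-0, a difference called under every offset but whose size follows the offset, since the Col-0 signals lie far under it (log2 differences of 1.75 with 32 and 4.88 with 2), and AT3G03305 and AT3G03270 differed by 1.07 and 0.91. Just after it, AT3G05070 and AT3G05100 differed by 0.11 and 0.15 and did not pass against Col-0. AT3G03290 and AT3G03305 are therefore among the 43 probe sets counted as higher in both comparisons. So are 8 of 35 unannotated probe sets whose numbers fall between those of the run, 33 of which were higher than in Col-0; where these lie in the genome was not looked up. With these and the 3 loci just before the run also set aside, a choice made after the data were seen, 33 higher and 145 probe sets in all remained.

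**Figure D5:**
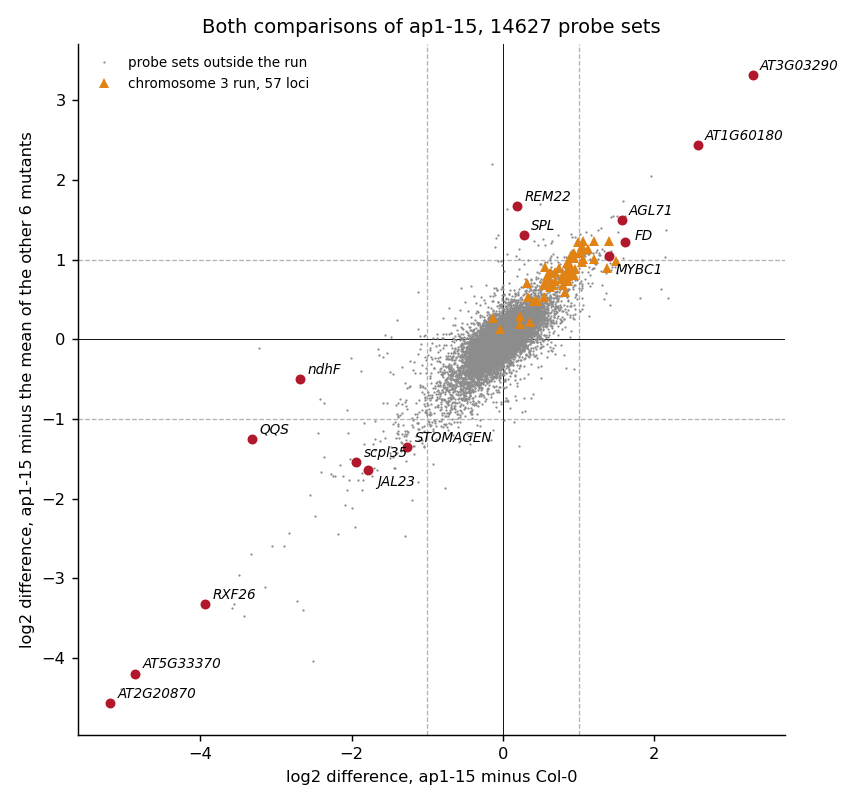
Log2 difference of ap1-15 from Col-0 (horizontal axis) and from the mean of the other 6 mutants (vertical axis) for 14627 probe sets (grey); dashed lines mark 2-fold, triangles the 57 loci of the chromosome 3 run and red points named genes. The run forms a group near 0.84 on both axes, RXF26 and the loci AT2G20870 and AT5G33370 lie at the lower left, and the 2 axes share the ap1-15 arrays.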

How the data were processed

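Biotin-labelled total RNA was read on Affymetrix arrays of 1 colour. The deposited values are signal intensities per probe set, made by the authors with MAS5 per the submitters' processing notes, whose version and settings these notes leave out. With 2% trimmed from both ends, the mean of each of the 6 arrays was 100. No further normalization was applied.

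Signals were fitted as log2(signal + 8) with limma 3.58.1 in R 4.3.3: group means over the 24 inflorescence apex arrays (16 residual degrees of freedom), eBayes with trend, two-sided, Benjamini-Hochberg adjustment over all 14627 probe sets kept. To be kept, a probe set had to exceed the 40th percentile of its array on at least 3 of 24 arrays; 64 control probe sets were left out. The number of arrays limits the precision. Calls were made below an adjusted p of 0.05. The code was tested on simulated data.

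The platform annotation gave 1 gene for 13513 probe sets, several for 503 and none for 8794, controls included, and a symbol for 1580. Genes it does not name, such as AP1, LFY, AP3 and AG, are not analysed here. No coordinates are printed, as no source used here names the array's genome build. A gene with several probe sets is represented by that of highest mean signal.

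The comparison, the set-aside loci and 24 gene lists were chosen with earlier results of these data known. From the lists, 6 wrong name matches were removed. The lists hold 1336 entries, but only 202 of their genes were annotated and 146 were measured. Counts on a list therefore speak only of its measured members. Genes were named by rule: listed regulators; genes with a symbol past 2-fold in both comparisons with no overlap; up to 4 called members per list of at least 3 measured; genes past 2-fold in only 1 comparison; and the extreme loci without a symbol. The letters A, B and C do not pair the samples: deviations of same-lettered arrays correlated at -0.06, 0.07 and 0.04.

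Alternatives were other normalizations, offsets, filters and variance settings, other sets of arrays, a replicate block, probe sets with 1 gene, an RNA 3'/5' ratio covariate and each array left out.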

Additional observations from a re-analysis of the deposited data

Results flagged for a closer look

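Named genes are given here where the differences of ap1-15 and of the mean of the other 6 mutants from Col-0 had opposite signs. For each, ap1-15 passed against Col-0. The difference between ap1-15 and the other mutants also passed an adjusted p of 0.05, but this is no separate support. With opposite signs it is always larger than the difference of ap1-15 from Col-0. The choice of genes therefore all but fixed that outcome. The restriction to opposite signs was made after the values had been seen. The difference of the other mutants from Col-0 was not tested. It ran from -0.58 for WES1 to 0.44 for GH9B8. For some genes it was very small, such as -0.01 for IAA18 and AT3G03290 and 0.01 for APL3. The values below are the difference of ap1-15 from the other mutants on the log2 scale.

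Of the genes that were higher in ap1-15 than in Col-0, the difference was 1.31 for WES1, 1.12 for ALC, 0.97 for SAP, 0.84 for MT1C, 0.65 for UGT84A1, 0.64 for BPEp, 0.60 for PUCHI, 0.30 for HTR12 and 0.22 for IAA18. It was 3.31 for AT3G03290, beside the chromosome 3 run. Of the genes that were lower in ap1-15, it was -1.35 for STOMAGEN and -1.06 for SPCH. Among photosynthesis genes it was -1.13 for LrgB, -0.97 for NdhL, -0.80 for NdhN, -0.74 for HPR, -0.72 for PSAE-1, -0.69 for SBPASE, -0.67 for RCA and -0.64 for LHCB4.3. The cold genes COR15B and COR47 had -1.04 and -0.77, the endoglucanase gene GH9B8 had -0.80 and APL3, a subunit of the starch enzyme ADP-glucose pyrophosphorylase, had -0.38.

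Bacterial poly-A control transcripts, which are outside the plant measurements, are given for their signal on the Col-0 inflorescence apex arrays. Their median signals were 0.43 for dap in ap1-15, against 204.98 in Col-0, and 3.02 for thr in ap1-15, against 100.88 in Col-0. For phe the medians were 1.49 in ap1-15 and 30.4 in Col-0, and for lys 3.55 in ap1-15 and 21.7 in Col-0.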

How the results depend on the processing

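Under 20 refits and 2 other choices of the loci set aside, all 4 counts stayed within 1.5 times their value except in the following. With an offset of 32 the count at 2-fold was 115 against Col-0, 77 against the other 6 mutants and 54 in both, all of them among those of the offset of 8. A 60th percentile filter left 184 against Col-0. Restricting the test to unambiguous probe sets (1 gene, no suffix for shared targets), which are fewer, left 113, 92 and 59. Leaving out single arrays, the counts ranged from 271 to 282, from 229 to 245 and from 148 to 157, and 48 to 50 loci of the chromosome 3 run were higher. A replicate block on the letters, which do not pair the samples, gave 278, 235, 155 and 51; it ended the call of 1 named gene, IAA18. Of 2970 values of the 80 named genes under these alternatives 75 lost their call, 3 gained one and none changed sign while called. Differences that were not called did change sign in 4 results: SP1L2, SPY and GH3.3 against the other mutants (-0.27 to 0.04, -0.03 to 0.17 and -0.15 to 0.03) and REM22 against Col-0 (-0.03 to 0.26). A covariate for the RNA 3'/5' ratio ended 17 calls and left 137 of the 155 probe sets called in both. With it 2663 of 14627 probe sets passed against Col-0 at any size of difference, where 4019 passed without it. IAA18, HTR12 and MT1C lost their calls most often, so their differences from Col-0 (0.21, 0.23 and 0.47) are the least firm of those named.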
